A study of Mus musculus with 2 samples.

Results

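Genes of 10 secreted or surface cytokines were followed in the adipose tissue macrophages (ATMs): *Il1a*, *Il1b*, *Il1rn*, *Il6*, *Il10*, *Il18*, *Tnf*, *Osm*, *Tslp* and *Tnfsf9*. They were taken by symbol from the 31053 genes of the count tables, 10 genes in all, and all 10 had unique molecular identifiers (UMIs) in both libraries. ATMs came from the epididymal fat of male C57/BL6 mice aged 8 to 12 weeks, kept on a control diet with 11% of its energy as fat (CD) or given a diet with 58% of its energy as fat (HFD) from 4 p.m. until they were culled at 9 a.m. the next morning. The fat was digested with collagenase D for 35 min at 37 °C, CD45+Lin-Ly6Clow/-F4/80+ cells were sorted, and the cells of 3 mice per diet were pooled into 1 droplet-based 3' scRNA-seq library. With 1 library per diet there was no replicate and no test, so every interval below is a 95% interval for counting error only, and differences between mice or between preparations cannot be told apart from diet.

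Cells with 200 to 3500 genes and at most 10% of UMIs from mitochondrial (mt-) genes were kept, which left 2364 CD cells and 2021 HFD cells. The HFD cells were shallower, with a median of 2792 UMIs against 4490.5 in CD, and 40.8% of them had under 1000 genes against 14.4%. All 10 macrophage markers (*Adgre1*, *Csf1r*, *C1qa*, *Lyz2* and others) had UMIs in both libraries, and all 6 mast cell or basophil markers were at 0. No macrophage marker was 2-fold apart, but their median log2 ratio (HFD over CD) was -0.47. *Adgre1* was at -0.19, *Csf1r* at -0.79 and *C1qa* at -0.89, while *Lyz2* was at 0.53. Neutrophil markers summed to 16.1 CPM (UMIs of the genes for each 1000000 UMIs of the cells summed) in CD and 8.53 CPM in HFD, and stromal markers, mostly *Dcn*, to 73.4 and 4.33 CPM. Monocyte markers summed to 617 and 767 CPM, mostly *Ccr2* (561 and 609.8 CPM), and 5 of the 7 were at least 2-fold higher in HFD (median log2 ratio, HFD over CD, 1.46). The others, *Ccr2* and *Ly6c2*, had log2 ratios of 0.12 and -0.33. The 6 peritoneal macrophage markers summed to 47.9 CPM in CD and 179 CPM in HFD, with 3 of the 5 that had at least 30 UMIs at least 2-fold higher (median log2 1.33). Of these sums *Saa3* alone gave 18.7 and 119 CPM, while *Gata6* had 6 and 5 UMIs (both named after their values were seen). The part of these markers in the differences between the diets was not tested. The libraries shared 14 barcodes, 7 of them among the kept cells.

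Cytokines of this set act at short range between macrophages, adipocytes and stromal cells. Interleukin-1 alpha and beta signal through the IL-1 receptor, which the product of *Il1rn* blocks. IL-6 and oncostatin M signal through receptors that share gp130, TNF and 4-1BB ligand belong to the TNF superfamily, and IL-10 is the classical brake on macrophage activation. *Tslp* encodes thymic stromal lymphopoietin, an alarmin best known from epithelium and stroma. In obese fat, TNF and IL-1 beta from macrophages have long been tied to insulin resistance, and fat-resident macrophages that carry Lyve1 and Tim4 are regarded as long-lived and homeostatic.

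The 250 bases upstream of the start site were available from RefSeq (GRCm38.p6) for 6 of the 10 genes. Those of *Il6* (chr5:30012864-30013113, plus strand), *Il1b* (chr2:129371140-129371389, minus strand) and *Tnf* (chr17:35202008-35202257, minus strand) are shown, since *Il1b* and *Il6* differed between the macrophage gates in both libraries while *Tnf* differed little. Capitals mark matches to 5 motifs searched on both strands: TGANTCA (AP-1, in 6.75% of 32851 promoters of this length), TGACG (the core of a CRE, in 17.8%), GGNNTTTCC (NF-kB, in 4.93%), TTGCNNAA (C/EBP, in 9.56%) and TATAAA (the core box read by the TATA-binding protein, in 12.4%).
Il6: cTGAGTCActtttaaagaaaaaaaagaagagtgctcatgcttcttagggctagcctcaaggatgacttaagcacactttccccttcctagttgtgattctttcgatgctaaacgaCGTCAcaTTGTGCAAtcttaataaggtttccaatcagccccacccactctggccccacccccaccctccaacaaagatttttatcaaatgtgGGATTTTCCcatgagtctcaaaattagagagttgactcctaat
Il1b: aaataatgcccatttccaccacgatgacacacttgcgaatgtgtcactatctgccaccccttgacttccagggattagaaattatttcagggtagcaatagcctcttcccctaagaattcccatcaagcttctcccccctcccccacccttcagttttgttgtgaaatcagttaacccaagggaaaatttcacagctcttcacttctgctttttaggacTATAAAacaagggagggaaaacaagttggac
Tnf: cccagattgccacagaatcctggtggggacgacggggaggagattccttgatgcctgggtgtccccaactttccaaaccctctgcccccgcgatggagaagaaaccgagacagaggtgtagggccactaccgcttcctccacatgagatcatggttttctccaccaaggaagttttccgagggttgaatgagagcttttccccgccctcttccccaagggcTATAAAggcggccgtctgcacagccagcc
The *Il6* promoter held an AP-1 match at -249, a CRE core at -135, a C/EBP match at -128 and an NF-kB match at -43, counted from the start site. *Il1b* held a core box at -31 and *Tnf* at -29, with no match to the other 4 motifs as spelled here in these 250 bases. These matches are a description of the letters, and no factor was measured.

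Between the diets, 2 of the 10 genes were at least 2-fold apart: *Osm* was higher in HFD and *Tslp* was lower. Of the 10662 genes with at least 30 UMIs in both libraries together, 1.81% were at least 2-fold higher in HFD and 4.69% at least 2-fold lower. The median log2 ratio (HFD over CD) was 0.35 for the 10 cytokine genes and -0.02 for all of these genes. Of the 10 ratios, 9 were above 0, with an interval wholly above 0 for 6 genes, and only the interval of *Tslp* was wholly below 0. Such signs and intervals were not counted over all genes, so these counts are not read as a result about the cytokines.

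**Figure D1:**
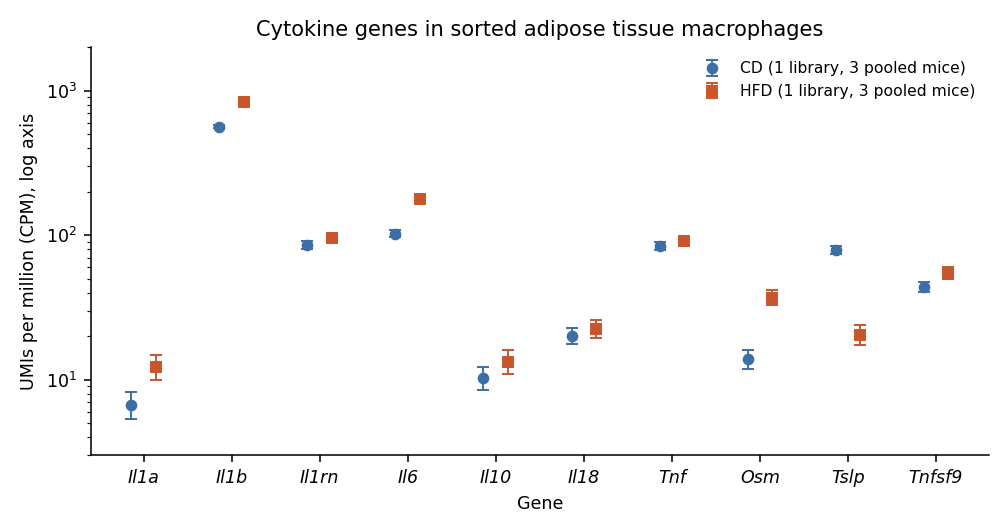
Level of each cytokine gene (CPM, log axis) in the CD library (circles) and the HFD library (squares), with exact 95% Poisson intervals for counting error. *Tslp* was the only gene whose HFD value lay below its CD value (20.4 against 79.2 CPM), and *Osm* had the widest gap the other way (37.1 against 13.9 CPM). Levels are from 3' UMIs and are compared between libraries, not between genes.

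Of the IL-1 family, *Il1b* (chromosome 2, 129364570 to 129371139, minus strand, GRCm38) encodes the secreted ligand that caspase-1 activates. It had 6914 UMIs in CD (563 CPM) and 6794 in HFD (840.2 CPM), a log2 ratio of 0.58 [0.53, 0.63]. *Il1a* (chromosome 2, 129299610 to 129309972, minus strand), the membrane-bound or nuclear alarmin, had 82 UMIs in CD (6.68 CPM) and 99 in HFD (12.2 CPM), a log2 ratio of 0.88 [0.44, 1.32]. Both ligands were thus higher in the HFD library, *Il1a* on few UMIs. *Il1rn* (chromosome 2, 24336853 to 24351494, plus strand), the receptor antagonist, was at 86.0 CPM in CD and 95.7 CPM in HFD (log2 0.15 [0.02, 0.29]). *Il18* (chromosome 9, 50554827 to 50581840, plus strand), which encodes the inflammasome-processed inducer of interferon gamma, was at 20.1 and 22.5 CPM (log2 0.16 [-0.12, 0.44]). For *Il1rn* the gap between libraries was small, and for *Il18* none was detectable at this depth. *Il1b* UMIs were unevenly spread over cells: the highest 102 of the 1013 positive cells in CD and 103 of 1024 in HFD held 39.3% and 35% of them, with up to 56 and 67 UMIs in a cell.

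*Il6* (chromosome 5, 30013114 to 30019981, plus strand) had 1256 UMIs in CD (102 CPM) and 1449 in HFD (179 CPM), a log2 ratio of 0.81 [0.70, 0.92]. *Osm* (chromosome 11, 4236420 to 4241026, plus strand) encodes oncostatin M, which acts on stromal cells and adipocytes. It had 171 UMIs in 115 CD cells (13.9 CPM) and 300 UMIs in 168 HFD cells (37.1 CPM), 2.67-fold higher in HFD (log2 1.41 [1.14, 1.69]). No cell of either library carried many: the most *Osm* UMIs in a cell were 9 in CD and 8 in HFD. *Tnf* (chromosome 17, 35199381 to 35202007, minus strand), whose product is shed from the membrane by Adam17, was at 84.3 CPM in CD (1036 UMIs) and 91.0 CPM in HFD (736 UMIs), a log2 ratio of 0.11 [-0.03, 0.25]. *Tnfsf9* (chromosome 17, 57105325 to 57107757, plus strand), the ligand of the co-stimulatory receptor 4-1BB, was at 44.0 and 55.2 CPM (log2 0.33 [0.14, 0.51]). The 2 TNF superfamily genes therefore differed less between the libraries than *Il6* and *Osm*. *Il10* (chromosome 1, 131019845 to 131024974, plus strand) had 126 UMIs in CD (10.3 CPM) and 108 in HFD (13.4 CPM), a log2 ratio of 0.38 [-0.00, 0.76].

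*Tslp* (chromosome 18, 32815383 to 32819797, plus strand) had 973 UMIs in 651 CD cells (79.2 CPM) and 165 UMIs in 132 HFD cells (20.4 CPM). It was 3.88-fold lower in HFD (log2 -1.96 [-2.20, -1.72]), against the direction of the other 9 genes. The cells held few copies each, with a median of 1 UMI per positive cell in both libraries and at most 8 in CD and 4 in HFD. A gene on the other strand, *4930455D15Rik*, overlaps the locus; *Il1a*, *Il1b*, *Il18* and *Tnfsf9* also have neighbours on the other strand, and no member overlaps a gene on its own strand. The stromal marker sum was also lower in HFD (73.4 and 4.33 CPM). Within the CD library it was 7.63 CPM in Lyve1+ cells and 130.0 CPM in Folr2+Lyve1- cells, in which *Tslp* was at 129 and 51.5 CPM. The part of stromal RNA in the *Tslp* levels was not tested.

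Levels were next compared across 6 gates set on UMIs: Timd4+ (at least 1 UMI of *Timd4*, 368 CD and 72 HFD cells), Lyve1+ (1172 and 415), Folr2+Lyve1- (872 and 581), Ccr2+ (1326 and 1131), Lyz1 high (at least 10 UMIs of *Lyz1*, 555 and 672) and Trem2+ (638 and 168). Gates are not cell types and overlap. Of 368 Timd4+ CD cells 286 were also Lyve1+, but of 72 Timd4+ HFD cells only 28 were. Of 672 Lyz1 high HFD cells 603 were also Ccr2+. The share of Lyve1+ cells was 49.6% in CD and 20.5% in HFD, and that of Lyz1 high cells 23.5% and 33.3%. A gate on UMIs favours deep cells: Lyz1 high cells had a median of 8205 UMIs in CD and 6609 in HFD, against 3707 and 1839 outside the gate. For each gate the summed CPM was set against that of the other cells of the same library.

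**Figure D2:**
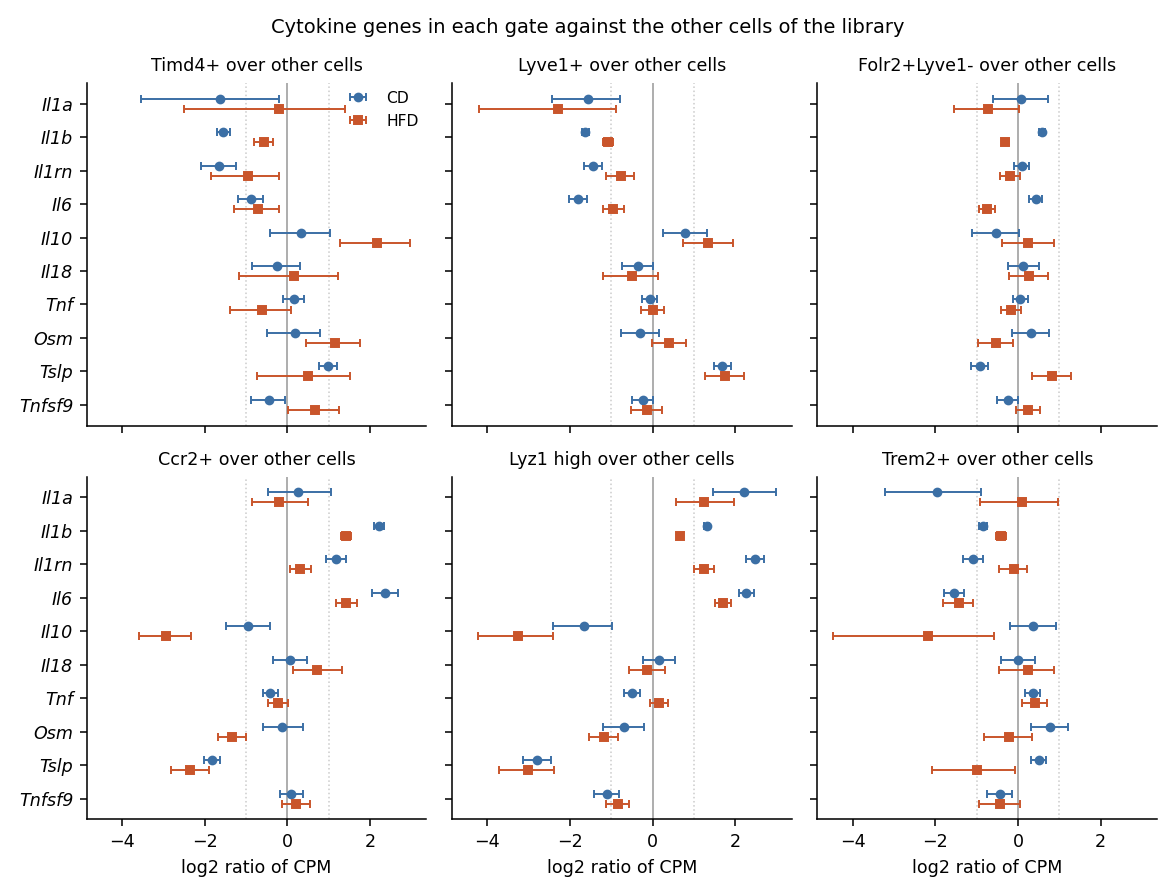
Log2 ratio of summed CPM, gate over the other cells of the same library, for each cytokine gene in 6 gates (circles, CD; squares, HFD; bars, exact 95% intervals for counting error; dotted lines, 2-fold). *Il1b*, *Il1rn* and *Il6* lay to the right in Ccr2+ and Lyz1 high cells and to the left in Lyve1+ cells in both libraries, and *Tslp* lay the other way.

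Lyz1 high cells, set on a lysozyme gene, were higher than the other cells in all IL-1 receptor ligands and in *Il6* in both libraries. In CD, *Il1b* was at 885 CPM inside the gate and 359 CPM outside, *Il6* at 198 and 41.3 CPM, and *Il1rn* at 173 and 31.2 CPM. In HFD the same genes were at 999 and 631 CPM, 256 and 78.5 CPM, and 128 and 53.8 CPM. *Il1a*, *Il1rn* and *Il6* were thus at least 2-fold higher in both libraries (2.08% of 10656 genes were), and *Il1b* was so in CD alone (log2 1.30 and 0.66). *Il10* and *Tslp* were at least 2-fold lower in both libraries, as were 9.65% of genes: *Tslp* was at 17.0 CPM inside against 119 CPM outside in CD, and 5.01 against 40.7 CPM in HFD.

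Ccr2+ cells, which carry the monocyte chemokine receptor, were at least 2-fold higher in *Il1b* and *Il6* in both libraries (2.42% of genes) and lower in *Tslp* (6.60%). *Il1b* was at 730.1 CPM in Ccr2+ CD cells against 158 CPM in the others (log2 2.21 [2.09, 2.34]), and at 986 against 370.2 CPM in HFD (log2 1.41 [1.30, 1.53]). *Il6* had log2 ratios of 2.35 [2.05, 2.67] and 1.42 [1.18, 1.67]. Both genes therefore stood closer to the rest of the cells in HFD, where the cells outside the gate also held more of them. Cells outside this gate were shallow, with a median of 3130.5 UMIs in CD and 1545.5 in HFD, against 5928.5 and 4965 inside. A gate at 1 UMI can miss *Ccr2* in shallow cells, and the part of depth in the narrower ratios was not tested. *Il10* went the other way, at 5.18 CPM in Ccr2+ HFD cells and 39.8 CPM in the others (log2 -2.94 [-3.58, -2.33]). With each cell placed in 1 gate, which leaves in the Ccr2 gate only cells of no other gate, the *Il6* ratio in HFD was -0.53.

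Lyve1+ cells, set on a marker of resident macrophages, were at least 2-fold higher in *Tslp* in both libraries (3.12% of genes). They were at least 2-fold lower in *Il1a* and *Il1b* in both libraries (1.80%). Of the Lyve1+ cells 42.4% in CD and 37.1% in HFD were also Ccr2+. *Tslp* was at 129 CPM inside and 40.4 CPM outside in CD, and at 48.7 and 14.6 CPM in HFD, so the log2 ratios of 1.68 [1.48, 1.88] and 1.74 [1.27, 2.20] were alike although both HFD levels were lower. With cells thinned to 800 UMIs and gates set anew on the thinned counts, these *Tslp* ratios were 0.29 in CD and 0.72 in HFD, under 2-fold. *Il1b* was at 258 CPM inside and 799.9 CPM outside in CD, and at 435 and 923 CPM in HFD. *Il6* had log2 ratios of -1.80 and -0.95. *Il10* leaned to Lyve1+ cells in summed CPM, at 13.4 against 7.81 CPM in CD and 26.9 against 10.6 CPM in HFD (log2 0.78 [0.25, 1.32] and 1.34 [0.73, 1.94]). With the mean of single-cell CPM the *Il10* ratios were only 0.19 in CD and 0.14 in HFD. *Tnf* did not lean either way: 82.1 against 86.1 CPM in CD and 90.8 against 91.1 CPM in HFD.

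Timd4+ cells had no member at least 2-fold apart in both libraries (2.66% of genes were higher and 0.723% lower). In CD they resembled Lyve1+ cells, with *Il1b* at 212 CPM against 619 CPM and *Tslp* at 139 against 69.8 CPM. In HFD, *Il10* was at 53.5 CPM against 11.9 CPM (15 UMIs in the gate, log2 2.17 [1.27, 2.96]) and *Osm* at 78.5 against 35.6 CPM (22 UMIs, log2 1.14 [0.44, 1.77]). An *Il10* UMI was seen in only 5.56% of the 72 cells and an *Osm* UMI in 12.5%. The intervals do not cover such uneven spread of UMIs over cells. The 72 HFD cells of this gate held more markers of other cells: the 6 peritoneal macrophage markers summed to 2300.0 CPM in them against 218 CPM in Timd4+ CD cells, the dendritic markers to 749 against 297 CPM, and 13 of the 72 cells had 2 markers of another type.

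Folr2+Lyve1- cells also had no member 2-fold apart in both libraries (0.103% of genes were higher and 0.272% lower), and several ratios changed sign between the libraries. *Il1b* was higher than in the other cells in CD (699 against 470.1 CPM) and lower in HFD (715 against 887 CPM), and *Tslp* was lower in CD (51.5 against 98.0 CPM) and higher in HFD (29.7 against 16.9 CPM). Trem2+ cells, which carry the lipid-sensing receptor of lipid-associated macrophages, were at least 2-fold lower in *Il6* in both libraries (0.751% of genes), at 43.6 against 127 CPM in CD and 71.3 against 193 CPM in HFD. No member was 2-fold higher there in both (0.582% of genes). *Tnf* was slightly higher in Trem2+ cells, at 99.7 against 77.9 CPM in CD and 117 against 87.7 CPM in HFD (log2 0.35 [0.17, 0.54] and 0.41 [0.10, 0.71]). *Tnf* and *Il18* varied little between gates, with every ratio of gate over other cells between -0.60 and 0.41 and between -0.50 and 0.71.

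Since the shares of most gates differed between the diets, HFD was then compared with CD within each gate. Ccr2+ cells were 56.1% of CD and 56.0% of HFD cells. The gates overlap, so the 6 comparisons share cells. *Tslp* was lower in HFD in each of the 6 gates. It was at 129 CPM in Lyve1+ CD cells and 48.7 CPM in Lyve1+ HFD cells (log2 -1.41 [-1.79, -1.05]), at 45.4 and 10.4 CPM in Ccr2+ cells (-2.13 [-2.54, -1.75]), and at 99.7 and 10.8 CPM in Trem2+ cells (-3.21 [-4.28, -2.31]). The Trem2+ gate held unlike cells in CD and HFD: 60.5% and 19.0% of them were also Lyve1+. Peritoneal macrophage markers in this gate summed to 86.1 CPM in CD and 522 CPM in HFD. The part of this in the *Tslp* gap was not tested. The smallest gap was in Folr2+Lyve1- cells, from 51.5 to 29.7 CPM (-0.79 [-1.21, -0.39]). With HFD levels weighted to the gate shares of the CD library, the log2 ratio over all cells was -1.61, still more than 2-fold. For this weighting each cell was placed in 1 gate or in none, and the shares were of UMIs, not of cells. Gates depend on depth, and 1.61% of CD cells against 13.2% of HFD cells were in no gate. The weighting therefore did not make the cell composition of the libraries equal. Among Ccr2+ cells of no other gate the sign was the opposite (log2 1.34).

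*Osm* was higher in HFD in each of the 6 gates. Its level was 12.3 CPM in Lyve1+ CD cells and 46.5 CPM in Lyve1+ HFD cells (log2 1.92 [1.40, 2.44]), and 10.1 and 23.9 CPM in Lyz1 high cells (1.25 [0.75, 1.77]). In Timd4+ cells it was 15.5 and 78.5 CPM (2.34 [1.45, 3.22]), the latter on 22 UMIs in 12.5% of the 72 cells. After each cell was thinned to 800 UMIs, 0.826% of Timd4+ CD cells had an *Osm* UMI. In HFD it was 1.41%, or 1 of 71 Timd4+ cells. In Trem2+ cells the *Osm* level was 19.6 and 32.4 CPM (0.73 [0.06, 1.36]), and that ratio was -0.04 when gates were set at 2 UMIs (20 for *Lyz1*). The interval of Lyve1+ cells lay above that of Ccr2+ cells (1.0 [0.65, 1.36]) and overlapped that of Lyz1 high cells, and the difference between gates was not tested. With HFD levels weighted to the gate shares of CD, the ratio over all cells was 1.45.

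**Figure D3:**
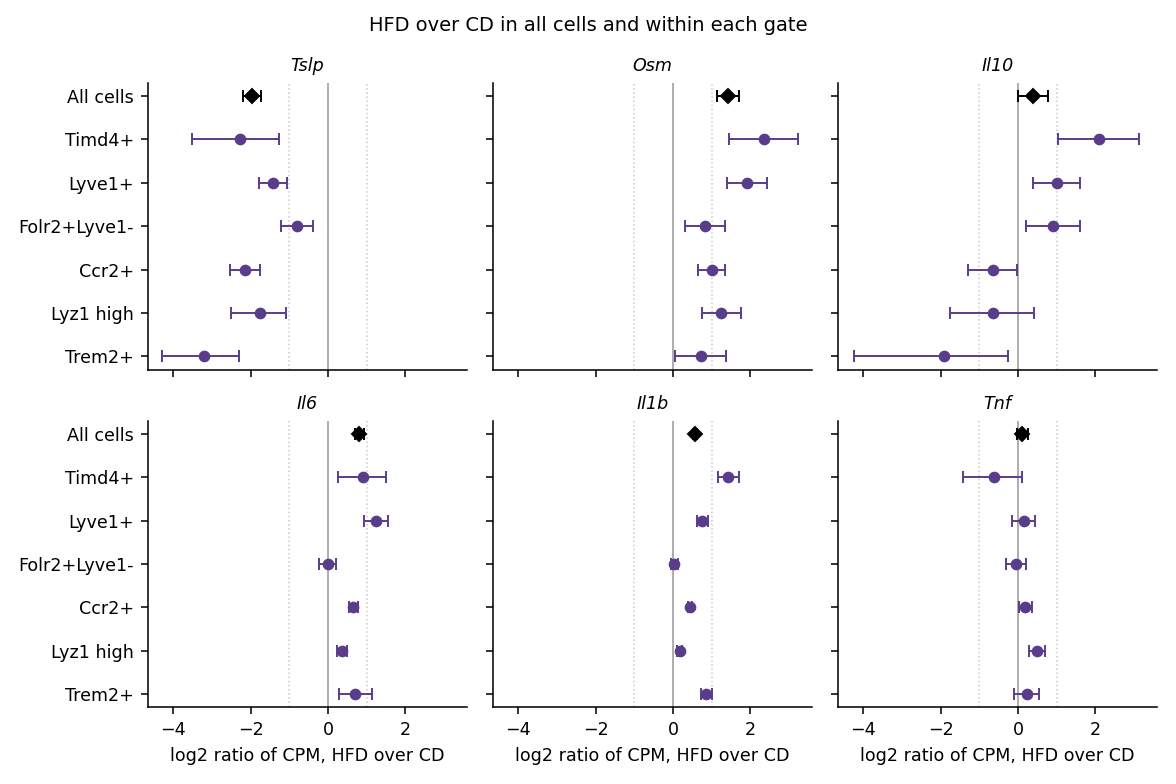
Log2 ratio of CPM, HFD over CD, for 6 cytokine genes in all cells (diamonds) and within each gate (circles), with exact 95% intervals for counting error and dotted lines at 2-fold. *Tslp* lay below 0 and *Osm* above 0 in every gate, whereas *Il10* ran from 2.10 in Timd4+ cells to -1.91 in Trem2+ cells.

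*Il10* did not move in 1 direction. It was at 13.4 CPM in Lyve1+ CD cells and 26.9 CPM in Lyve1+ HFD cells (log2 1.0 [0.39, 1.59]), and at 12.5 and 53.5 CPM in Timd4+ cells (2.10 [1.04, 3.12]; 1.88 without cells with 2 markers of another type). Only 5.56% of the Timd4+ HFD cells had an *Il10* UMI. In Ccr2+ cells *Il10* was at 8.05 and 5.18 CPM (-0.64 [-1.29, -0.01]) and in Trem2+ cells at 12.2 and 3.24 CPM (-1.91 [-4.24, -0.26]), the latter on 3 HFD UMIs. Cells with *Il10* in HFD were shallow, with a median of 1931.5 UMIs against 2804 in the rest, whereas in CD they had 4760.0 against 4476. Among cells with at least 1000 genes the ratio over all cells was -0.34, and after each cell was thinned to 800 UMIs it was 1.32. The direction for this gene therefore depended on the setting. These settings also change which cells count and how much each one weighs, and the part of depth was not tested.

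*Il6* and *Il1b* were higher in HFD in 5 gates and level in Folr2+Lyve1- cells. With gates at 2 UMIs the *Il6* ratio was -0.33 within Trem2+ and -0.69 within Folr2+Lyve1- cells, and among Ccr2+ cells of no other gate *Il6* and *Il1b* were at -0.38 and -0.32. In Lyve1+ cells *Il6* was at 42.6 CPM in CD and 101 CPM in HFD (log2 1.24 [0.93, 1.55]) and *Il1b* at 258 and 435 CPM (0.76 [0.61, 0.89]). In Lyz1 high cells, where both levels were high in both libraries, the ratios were 0.37 [0.24, 0.49] and 0.18 [0.11, 0.24]. In Folr2+Lyve1- cells they were -0.01 [-0.22, 0.20] and 0.03 [-0.06, 0.12], so a gap of the size seen in Lyve1+ cells lay outside both intervals. In Timd4+ cells *Il1b* was at 212 and 571 CPM (1.43 [1.15, 1.70]), and 0.98 without cells with 2 markers of another type; *Il6* was at 59.5 and 111 CPM (0.89 [0.26, 1.49]), and -0.27 without those cells. With HFD levels weighted to the CD gate shares, the ratios over all cells were 0.37 for *Il6* and 0.32 for *Il1b*, below the 0.81 and 0.58 of the unweighted levels. *Il1rn* was lower in HFD within Lyz1 high cells, at 173 and 128 CPM (-0.44 [-0.59, -0.28]), and higher within Lyve1+ cells, at 43.6 and 60.3 CPM (0.47 [0.09, 0.84]). *Tnf* ran from a log2 ratio of -0.61 in Timd4+ cells to 0.49 in Lyz1 high cells.

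Counted by gate among members with at least 30 UMIs there, Timd4+ cells had 4 of 9 at least 2-fold higher in HFD (*Il1b*, *Il10*, *Osm* and *Tnfsf9*; 3.39% of genes) and 1 lower (*Tslp*; 9.0% of genes). Lyve1+ cells had 3 of 9 higher (*Il6*, *Il10* and *Osm*; 2.0%) and *Tslp* lower (3.73%). Ccr2+ cells had *Osm* higher (1.42%) and *Tslp* lower (3.85%) of 10, and so had Lyz1 high cells (1.51% and 2.13%). Trem2+ cells had none of 9 higher (3.22%) and *Il10* and *Tslp* lower (7.49%), and Folr2+Lyve1- cells had none of 10 either way (1.69% and 2.79%). The median log2 ratio of the members counted was above that of all genes in each gate, from 0.15 against 0.03 in Folr2+Lyve1- cells to 0.89 against -0.07 in Timd4+ cells. The Timd4+ gate held unlike cells in CD and HFD: 77.7% and 38.9% of them were also Lyve1+. Its peritoneal macrophage markers summed to 218 CPM in CD and 2300.0 CPM in HFD. The part of this in the counts was not tested. Some of the genes counted were no longer 2-fold apart under another setting. Within Timd4+ cells, *Tnfsf9* went from 1.36 to 0.19 with gates at 2 UMIs. With cells thinned to 800 UMIs and gates set anew on the thinned counts, *Il1b* was at 0.89 and *Tslp* at -0.85. Within Lyve1+ cells, *Tslp* was at -0.89 with gates at 2 UMIs and *Il10* went down to 0.69 with each cell in 1 gate. *Osm* within Ccr2+ cells went down to 0.91 with the mean of single-cell CPM.

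Shares of cells with a UMI were compared after each cell had been thinned to 800 UMIs, which left out 30 CD and 147 HFD cells. For these shares the cells kept the gates set on their unthinned UMIs. *Il1b* was then seen in 20.99% of CD and 29.1% of HFD cells (42.9% and 50.7% before thinning), *Il6* in 4.93% and 8.91% (16.2% and 20.3%), *Osm* in 1.29% and 3.04% (4.86% and 8.31%), and *Tslp* in 7.24% and 2.77% (27.5% and 6.53%). These 4 genes kept the direction of their levels. For *Tnf* the unthinned shares were 24.0% in CD and 18.2% in HFD and the thinned shares 6.30% and 6.19%, so the unthinned gap was not seen at equal depth. Across gates, thinned *Il1b* ran from 10.98% of Lyve1+ to 40.5% of Lyz1 high CD cells, and thinned *Tslp* from 0.901% of Lyz1 high to 9.52% of Lyve1+ CD cells. For *Il1b* and *Tslp* the intervals of Lyve1+ and Lyz1 high CD cells did not overlap. For *Osm* and *Tnf* the intervals of all gates overlapped within each library. No cell type that should lack these genes was loaded, so the share that free RNA gives was not measured.

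**Figure D4:**
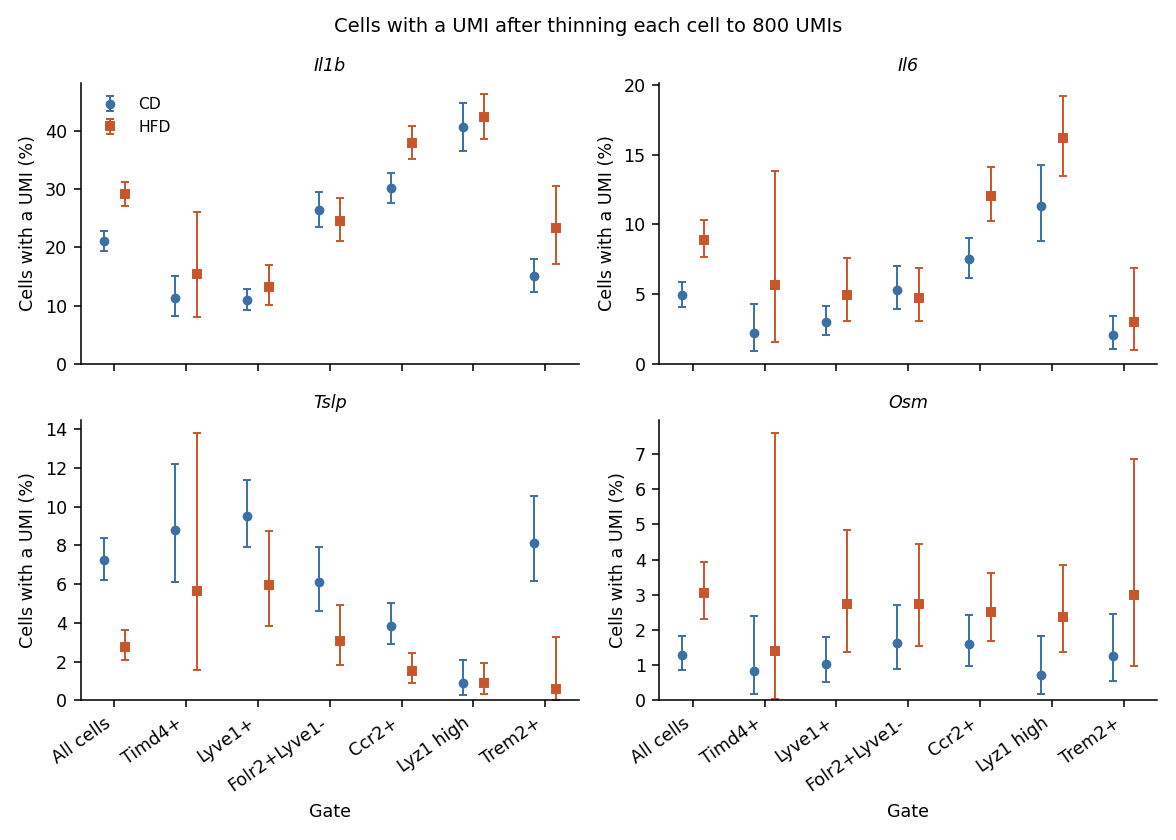
Percent of cells with a UMI of *Il1b*, *Il6*, *Tslp* and *Osm* after each cell was thinned to 800 UMIs, in all cells and in each gate (circles, CD; squares, HFD; bars, exact 95% Clopper-Pearson intervals). *Tslp* was highest in Lyve1+ CD cells (9.52%) and *Il1b* in Lyz1 high cells (40.5% in CD and 42.4% in HFD).

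Members were seen together unevenly. In CD, *Il6* was at 158 CPM in the 1013 cells with *Il1b* and 31.9 CPM in the rest (log2 2.31 [2.08, 2.55]), and in HFD at 246 CPM in the 1024 cells with *Il1b* and 47.4 CPM in the rest (2.38 [2.11, 2.65]). *Il1rn* was also higher in *Il1b* cells, with a log2 ratio of 2.64 in CD and 0.82 in HFD, and *Tslp* was lower (-1.67 and -1.79). *Tnf* leaned away from *Il1b* cells in CD (-0.45 [-0.63, -0.27]) and towards them in HFD (0.45 [0.22, 0.70]). *Osm* showed no clear link to *Il1b* in either library (-0.22 [-0.67, 0.23] and -0.29 [-0.64, 0.06]). Cells with *Il1b* were deeper, with a median of 6093 UMIs against 3571 in CD and 4713 against 1816 in HFD. Of the CD cells 19.97% had no UMI of any member and of the HFD cells 28.3%, but at 800 UMIs per cell the order was the opposite (59.0% and 53.4%).

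The likeness of patterns was described over 12 points, the 6 gates in each library, on log2(CPM + 10) centred within each library; the points share cells and libraries. *Il1b* was most like *Bcl2a1d* (r = 0.995), *Cytip* (0.995) and *Tmsb10* (0.988) among 7088 genes with at least 200 UMIs. *Il6* was most like *Net1* (0.992), *Plcg2* (0.989) and *Samsn1* (0.982), *Tslp* like *Rsrp1* (0.993), *Itpripl1* (0.987) and *B4galt1* (0.987), and *Il10* like *Fam126b* (0.988). *Osm* was most like *Nxf1* (0.977) and *Tnf* like *Surf1* (0.975). *Il1a* was most like *Rpl38* (0.959), *Il1rn* like *Taf10* (0.994), *Il18* like *Sec13* (0.962) and *Tnfsf9* like *Golga4* (0.886). Between members, *Il1b* went with *Il1rn* (0.940) and *Il6* (0.857) and against *Tslp* (-0.906), and *Osm* went with *Il10* (0.872). In single cells no clear link of *Osm* to *Il10* was seen. The log2 ratio of *Osm* in cells with *Il10* over the rest was 0.14 [-1.20, 1.21] in CD and 0.62 [-0.40, 1.48] in HFD.

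Of 11 genes of IL-1 family receptors and processing, 8 had at least 30 UMIs, with 2 at least 2-fold higher in HFD and 1 lower (median log2 0.06). *Pycard*, the inflammasome adaptor, was at 278 and 297 CPM in CD and HFD, *Casp4* at 124 and 93.4 CPM, and the pore former *Gsdmd* at 36.9 and 37.7 CPM. The sensor *Nlrp3* was at 26.9 CPM in CD and 55.0 CPM in HFD (log2 1.03). The other 2 were picked after their values were seen: *Il18rap*, with 16 and 31 UMIs, was higher, and *Il18bp*, with 50 and 13 UMIs, was lower. Receptors of the remaining members were mostly level, with 1 of the 10 that passed at least 2-fold higher and none lower. *Il6ra* was at 151 and 134 CPM, *Crlf2*, which pairs with the IL-7 receptor chain to bind TSLP, at 140.3 and 133 CPM, and *Lifr* and *Il10rb* at 123 and 125 CPM in CD and 96.5 and 104 CPM in HFD. The gene past 2-fold was *Il7r* itself, at 4.64 and 10.8 CPM, named after its value was seen. *Osmr*, the specific chain of the oncostatin M receptor, had 5 and 3 UMIs in the 2 libraries, at or near the floor of 3 counts.

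Of 23 other cytokine genes, 7 had at least 30 UMIs, and 1 of these was at least 2-fold higher in HFD: *Lif*, from the same gene family as *Osm*, with 9 UMIs in CD and 35 in HFD (log2 2.56; named after its value was seen). *Tgfb1* was at 244 and 200.3 CPM, *Tnfsf12* at 111 and 85.8 CPM, *Il16* at 33.7 and 33.1 CPM and *Ebi3* at 26.9 and 20.03 CPM. *Il12a*, *Il12b*, *Il33*, *Il13* and *Tnfsf15* had 0 UMIs in both libraries, which allows up to 0.244 CPM in CD and 0.371 CPM in HFD.

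Of 16 NF-kB and STAT3 feedback genes all passed, 1 was at least 2-fold higher and none lower (median log2 0.02). *Dusp1* was at 2839 and 3237 CPM, *Zfp36*, which degrades cytokine mRNAs, at 1705 and 1799 CPM, *Nfkbia* at 1203 and 1448 CPM and *Nfkbiz* at 640.1 and 723 CPM. The gene past 2-fold was *Tnfaip2*, at 36.8 and 74.3 CPM, and *Socs3*, the feedback inhibitor downstream of gp130, was at 190 and 118 CPM; both were named after their values were seen. The 12 genes of the response to tissue dissociation summed to 16870 CPM in CD and 16984 CPM in HFD, but the sums differed between gates. In Lyve1+ cells they were 19339 CPM in CD and 21004 CPM in HFD, and in Lyz1 high cells 12156 and 13174 CPM. From CD to HFD the sum rose in Folr2+Lyve1- cells (16098 and 19210 CPM) and fell in Trem2+ cells (17708 and 15836 CPM). *Hspa1b* was at least 2-fold higher in HFD (45.8 and 128 CPM; named after its value was seen), and *Fos*, *Junb*, *Jund* and *Egr1* were at 4729 and 4390 CPM, 2787 and 2970 CPM, 2288 and 2817 CPM, and 1882 and 1510 CPM. Their part in the cytokine levels was not tested.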

How the data were processed

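ATMs were profiled by droplet-based 3' scRNA-seq in 2 libraries, CD and HFD, each from the cells of 3 mice. The values deposited by the authors are raw counts of UMIs, not normalized, for every gene and cell barcode. According to the submitters' processing notes and the methods of the study, reads were processed with Cell Ranger 3.0.2 (reference mm10, Ensembl 93). The tables held 15003119 UMIs in 4459 CD barcodes and 9164686 UMIs in 3163 HFD barcodes.

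Python 3.11.15 was used, with pandas 2.3.3, scipy 1.17.1, numpy 2.4.6 and, for the plots, matplotlib 3.10.9. Cells with 200 to 3500 genes and at most 10% mt- UMIs were kept, which left out 2059 CD and 1132 HFD barcodes over the mt- limit. UMIs were summed over all kept cells or over a gate and given as CPM. Intervals at 95% were exact: Poisson for levels, conditional binomial for ratios and Clopper-Pearson for shares. These cover counting error only, and since cells are not replicates no p-value was computed. A gene counted as different where the ratio was at least 2-fold and it had at least 30 UMIs in both libraries together. A count of 0 was read as up to 3 counts. Doublets were kept, since Scrublet (scanpy 1.11.5) called 0 CD and 2 HFD barcodes by its own threshold. As alternatives, the highest Scrublet scores up to the expected rate, cells with 2 markers of another cell type, other limits on cells, other scalings, other gates and cells thinned to 800 UMIs were tried. The weighting of HFD levels to the gate shares of CD, which are shares of UMIs with each cell in 1 gate or in none, was chosen after seeing the data. Positions are from GENCODE M21 (GRCm38) and promoters from RefSeq (GRCm38.p6). Motifs were searched in the 250 upstream bases of all promoters of that table except those on chromosome 18, which were left out.

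The members, gates and gene lists were chosen with earlier results of these data known. All 10 members were described. Of each list up to 4 genes with the most UMIs were named. For each member up to 3 of the genes most like it by Pearson r were named, of those with at least 200 UMIs. Intervals were tested on simulated Poisson counts with known ratios. These hold no uneven spread of UMIs over cells, so the test cannot tell how the intervals fare with it. The mouse-level spread, the clusters and the flow cytometry of the study were not analysed here.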

Additional observations from a re-analysis of the deposited data

Results flagged for a closer look

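*Il10* differed in direction between gates under the same contrast, HFD over CD. The log2 ratio was 2.10 within Timd4+ cells and 1.0 within Lyve1+ cells, and -1.91 within Trem2+ cells, where the HFD library held 3 UMIs. Of the Timd4+ HFD cells only 5.56% had an *Il10* UMI. With 1 library per diet the difference between gates was not tested, and the gates share cells. The Timd4+ gate also held unlike cells in CD and HFD: 77.7% and 38.9% of them were also Lyve1+.

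Barcodes with over 10% mt- UMIs, which the comparisons left out except where the limit was set at 20% as an alternative, also held the 10 cytokine genes. Their summed level was 746 CPM in 2059 CD barcodes and 1136 CPM in 1132 HFD barcodes, at a median of 892 and 737.5 UMIs per barcode. *Tslp* was at 75.4 CPM in the CD and 44.5 CPM in the HFD barcodes left out, and *Osm* at 29.3 and 62.1 CPM.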

How the results depend on the processing

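The count of members at least 2-fold apart between the diets was 2 (*Osm* and *Tslp*) or 3 under the alternatives tried. The third gene was *Il1a* (1.06) among cells with at least 1000 genes, and *Il10* with the mean of single-cell CPM (1.18) and with cells thinned to 800 UMIs (1.32). The log2 ratio of *Osm* ran from 1.24 to 1.51 and that of *Tslp* from -2.25 to -1.61. *Il10* ran from -0.34 to 1.32, *Il6* from 0.37 to 0.96 and *Il1b* from 0.32 to 0.68. Counts of members at least 2-fold apart in both libraries between a gate and the other cells depended on the setting. The share of all genes past 2-fold was counted at the main setting only. Counts under the alternatives are therefore not read as results about the cytokines. For Lyz1 high the count of 5 ran from 4 to 6. For Timd4+ the count of 0 became 1 with the mean of single-cell CPM, 2 with cells thinned to 800 UMIs, 2 without cells with 2 markers of another type, 3 with gates at 2 UMIs and 1 with each cell in 1 gate. For Lyve1+ the count of 3 became 5 with the mean of single-cell CPM, 6 with gates at 2 UMIs and 0 with each cell in 1 gate. For Folr2+Lyve1- the count of 0 became 4 with thinned cells and 1 with each cell in 1 gate. For Ccr2+ the count of 3 became 1 in both of these. For Trem2+ the count of 1 became 0 with thinned cells and 2 without cells with 2 markers of another type. Thinning leaves fewer UMIs, and the gates were then set anew on the thinned counts, with Lyz1 high at 2 UMIs. They thus held other cells than the main gates. Placing each cell in 1 gate leaves fewer cells in the gates placed last. Otherwise the cause was not tested. With gates at 2 UMIs the ratio of *Il1a* in Timd4+ CD cells over the others became 0.21. With each cell in 1 gate, that of *Il6* in Ccr2+ HFD cells became -0.53, that of *Osm* 0.62, and *Tslp* within Ccr2+ cells 1.34 (HFD over CD). No replicate could be left out, since each diet had 1 library. Depth limits *Il1a*, *Il10* and *Osm* in the smaller gates; in the 72 Timd4+ HFD cells 3 UMIs equal 10.7 CPM.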
